A study of Mus musculus with 6 samples.

Results

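Stable long-range chromatin contacts of mouse P19 cells were examined across the first 48 h of retinoic acid treatment. A stable interaction was a pair of 5 kb bins on an autosome, with bin centres from 100 kb to just under 1 Mb apart, that had a count above 0 in all 6 libraries. Of 3,654,014 pairs in the deposited list, 89,877 (2.46%) met this rule, and they were 5.07% of the 1,773,571 autosomal pairs of that distance listed at any time point. P19 is a mouse embryonal carcinoma line. The groups were untreated cells (T0, 0 h), cells after 6 h (T6) and cells after 48 h (T48) in 1e-06 M all-trans retinoic acid, with 2 Hi-C libraries each, numbered replicate 1 and replicate 2. A value before a slash is replicate 1 and the value after it replicate 2. Untreated cells kept for 6 h or 48 h are not part of the series, so an effect of the drug and one of time cannot be told apart. Nothing in the labels says that the 2 replicates came from separate cultures, and every p-value below measures the spread between libraries only, which may be technical. Coordinates are on the mouse build mm9, and a genome or annotation of that build was not used here, so genes are not named and sequences not shown.

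Hi-C joins DNA ends that meet inside fixed nuclei and reads each junction as a pair of sequences. Contacts become rarer with distance along the chromosome, and a pair of loci that meets more often than its distance predicts is called an interaction. In mammalian cells many such contacts at this range are loops held by cohesin between a pair of sites bound by CTCF, and others join promoters to distant enhancers. A loop has 2 anchors, the stretches of DNA at its feet, and shows in a contact map as a small patch of raised counts with a summit. P19 cells resemble the cells of the early embryo, and retinoic acid drives them out of that state towards neural fates. The deposited list holds pairs that both replicates of a time point gave as significant, with no mark of which contacts are CTCF loops, so the pairs are called stable interactions here.

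The values that chose the members were the 6 counts themselves, read as listed or not listed, so the following levels are a description. The median count of a member was 11/7 before treatment, 10/6 after 6 h and 10/7 after 48 h. The lowest count was 3 in every library. A single stable interaction was thus measured with few reads. The lowest listed count depended on distance: at 100 kb it was 8 and 5 in the T0 libraries, and at 995 kb it was 3 and 3. A member's count, divided by the lowest count that its library listed at its distance and averaged over the libraries, had a median of 1.81, and the middle 80% of members (10th to 90th percentile) lay between 1.31 and 3.16. In 20,217 members (22.5%) the count was at least 1.5 times the lowest listed in all 6 libraries. At the edges of the rule, 2571 members lay at exactly 100 kb against 2661 stable pairs at 95 kb, with median T0 counts of 15 and 9 against 16 and 10. At the far edge, 24 members lay at 995 kb, with median T0 counts of 5.5 and 6, against 27 stable pairs at 1000 kb, with 8 and 5.

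Some members stood apart between replicates, and those higher in replicate 2 touch several results below. The summed count of a member in the 3 replicate 2 libraries was 0.64 times that in the 3 replicate 1 libraries at the median and 2.59 times at the 99th percentile. In 789 members (0.878%), on 19 autosomes, it was over 3 times that of replicate 1, and the highest ratio was 74.4. In 931 members (1.04%) it was under the reciprocal of that limit, and these held 1.89% to 2.03% of the members' count in the replicate 1 libraries and 0.712% to 0.729% in the replicate 2 libraries. The 789 pairs held 16.0% of the members' count in T0 replicate 2, 16.4% in T6 replicate 2 and 15.3% in T48 replicate 2, against 1.26%, 1.48% and 1.26% in the replicate 1 libraries. They lay in 183 regions, and the 10 largest regions held 412 of them. The largest, chr5:14880001-15225000, had 183 such pairs with summed counts of 4912/53,411 before treatment, 5207/49,055 after 6 h and 4762/57,648 after 48 h. The next, chr8:19680001-20030000, had 96 pairs with 2948/38,916 before treatment, 3198/34,866 after 6 h and 2343/35,360 after 48 h. In both regions the 3 replicate 2 libraries were high and the 3 replicate 1 libraries low, whatever the time point. Results that rest on these pairs are given with and without them, and what sets them apart was not tested.

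**Figure D1:**
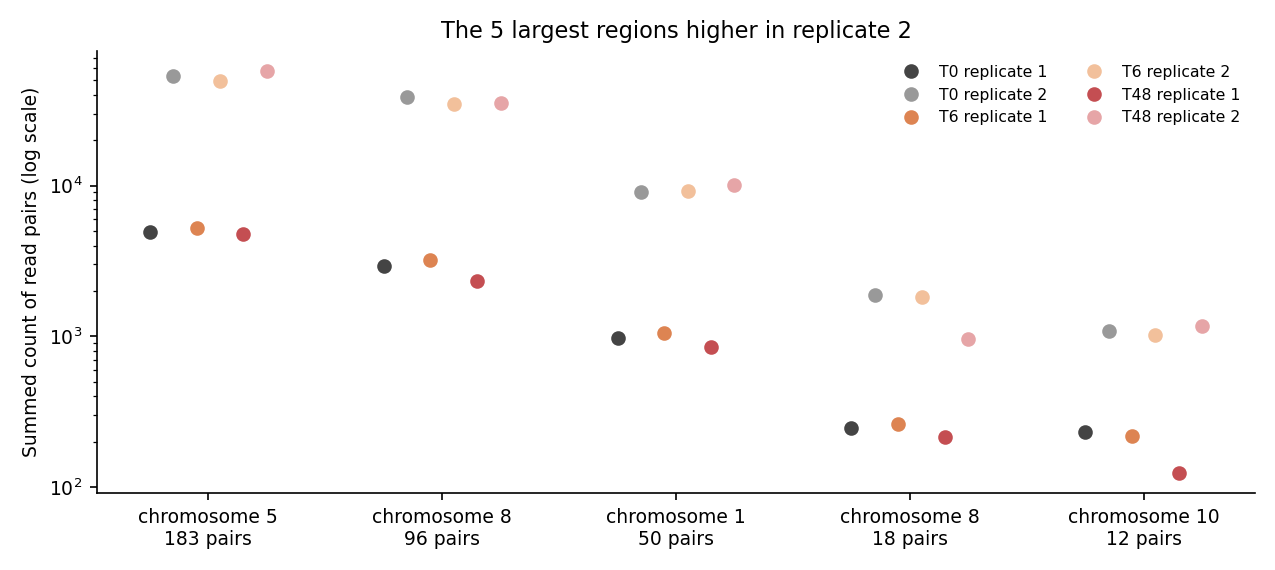
Summed count of read pairs (log scale) in each of the 6 libraries for the 5 regions with most pairs over 3 times higher in replicate 2. Each point is 1 library. Replicate 2 lies above replicate 1 at every time point in all 5 regions, and in the largest, on chromosome 5 with 183 pairs, the median ratio of replicate 2 to replicate 1 is 11.8.

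Stable interactions were the shorter ones of their range. The middle 50% of members spanned 145 to 340 kb with a median of 210 kb. Pairs listed at a single time point had medians of 320 kb for T0, 310 kb for T6 and 355 kb for T48, and such pairs were 82.3% of all autosomal pairs listed in the range. Members of 100 kb to under 200 kb numbered 41,493 (46.2% of members), those of 200 kb to under 500 kb 39,969 (44.5%), and those of 500 kb to under 1 Mb 8415 (9.36%). Of the pairs listed at T0, the members were 16.0% in the shortest class, 11.3% in the middle class and 5.31% in the longest. The corresponding shares were 19.2%, 13.1% and 6.40% of the T6 list, and 18.8%, 11.6% and 4.45% of the T48 list. The share was smaller in each longer class in all 3 lists. Over the whole range the members were 11.7% of 771,088 listed pairs before treatment, 13.8% of 651,988 after 6 h and 11.9% of 754,668 after 48 h. A list has no replicate, so these numbers carry no replicate error. Exact identity of bins is a strict rule: 274,774 T0 pairs (35.6%) had a T6 pair and a T48 pair within 1 bin of both anchors. How many pairs would match this loosely by proximity alone was not tested.

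**Figure D2:**
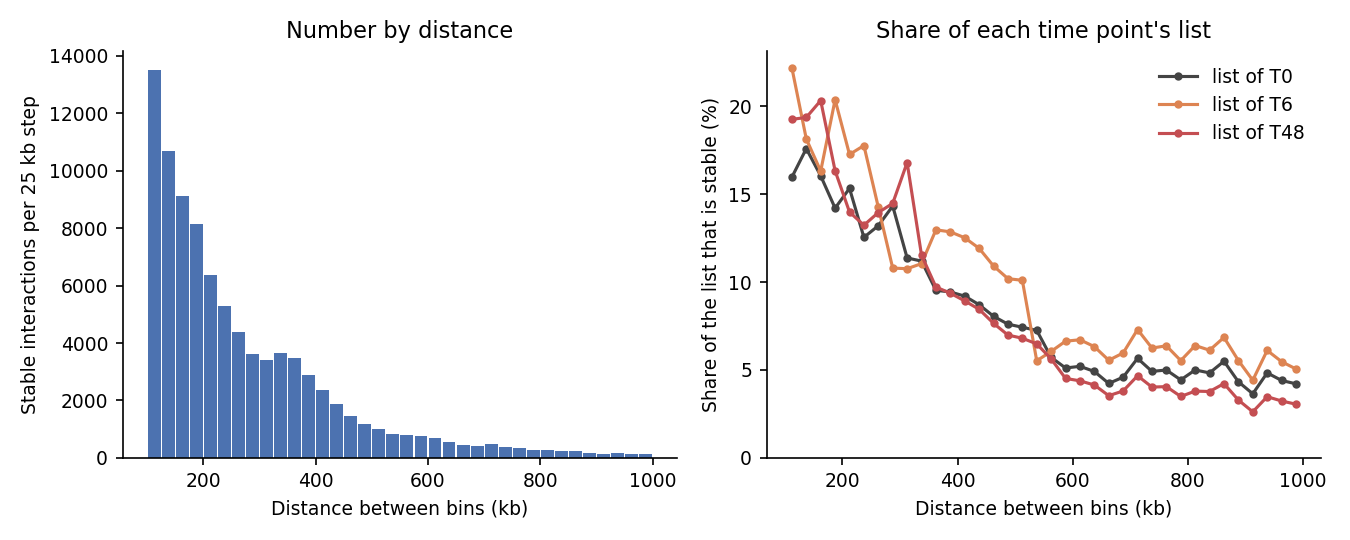
Left, number of stable interactions in each 25 kb step of distance between the bin centres. Right, stable interactions as a percentage of the pairs listed at T0, T6 and T48 in the same steps. Numbers drop from 13,505 in the first step to 117 in the last, and the share of each list drops with distance, in uneven steps. The lowest listed count is a small whole number that steps down with distance.

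Chromosome 1 held more stable interactions than its length or its list would give it. It had 12,392 members (13.8%), or 62.8 per Mb, whereas the other autosomes had 25.1 to 44.0 per Mb. Members were 19.2% of the T0 list of chromosome 1 against 8.31% to 12.9% on the other autosomes, 22.7% of its T6 list against 9.55% to 15.5%, and 22.4% of its T48 list against 8.34% to 13.6%. The median T0 count of its pairs at 5 kb was 81 and 44, against 82 to 92 and 45 to 49 on the others. Without pairs that have a bin with 20 or more members, chromosome 1 had 40.9 per Mb, within the 25 to 43.5 of the other autosomes. Chromosome 6, with 39.6 per Mb and 32.9 without such pairs, had the next most bins of this kind, 30 against 1 to 12 on the rest. Members that reached 1.5 times the lowest listed count in every library were 26.8% on chromosome 1 and 18.9% to 24.9% on the others.

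**Figure D3:**
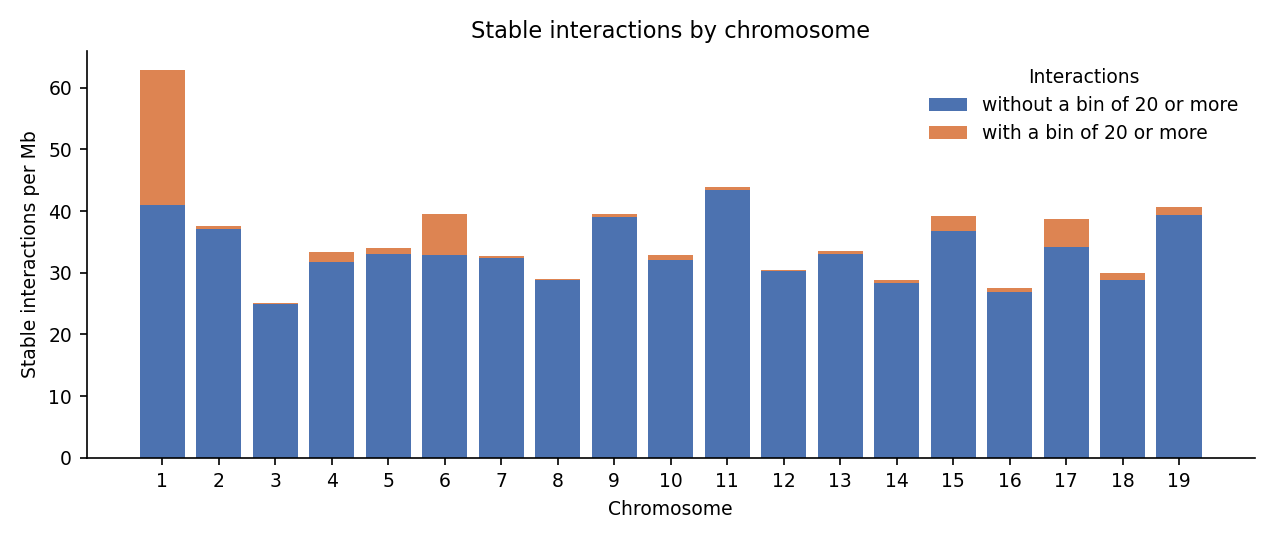
Stable interactions per Mb on each autosome, up to the last listed bin. The upper part of each bar (orange) is pairs with a bin that takes part in 20 or more stable interactions, the lower part (blue) all others. Chromosome 1 reaches 62.8 per Mb with such pairs and 40.9 without them, inside the range of the other chromosomes.

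Along the chromosomes the members were uneven. Counted by the midpoint between their bins, a 1 Mb window held a median of 24 members, 285 of 2417 windows held none, and the 90th percentile was 93. The fullest window was chr1:64000001-65000000 with 324 members, 205 of which had a bin with 20 or more. It was followed by chr17:30000001-31000000 with 315 (262 with such a bin), chr1:153000001-154000000 with 296 (131), chr1:92000001-93000000 with 283 (142) and chr6:114000001-115000000 with 275 (119). In these windows 43.3% to 83.2% of the members ended on a shared bin of that kind. Of the 50 fullest windows, 24 lay on chromosome 1, which has 194 of the windows.

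The members used 65,186 anchor bins, 18.2% of the 358,176 autosomal bins with any listed pair. A bin took part in 2 members at the median and 2.76 on average, and 45.8% of the bins took part in 1. Another anchor bin lay directly next to 71.3% of anchor bins, a share for which no comparison was made. A further 224 bins (0.344%) took part in 20 or more members and are called hub bins below. They carried 7216 members (8.03%), and 126 of them lay on chromosome 1 and 30 on chromosome 6.

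Hub bins differed in form from the patch that a loop makes. The bins directly beside a hub took part in a median of 1 member against 28 for the hubs, and 19 of the 224 hubs had another hub next to them. In 124 hubs at least 90% of the partners lay on 1 side, and in 60 hubs the partners were shared between the sides, with 25% to 75% on each. Hub bins were also heavily counted at short range. The summed count of their pairs of up to 20 kb had a median of 697 and 405 in the T0 libraries, 627.5 and 348 at T6, and 650.5 and 448.5 at T48. Bins with a single member had 168 and 95 at T0, bins with 10 to 19 members 136 and 80, and all autosomal bins 154 and 86. The hub value stood above the others in all 6 libraries, and it was 783 in T0 replicate 1 for the hubs of chromosome 1 against 512 for those elsewhere. In 163 hubs the short-range count was over 2 times the median of all bins. Whether the deposited calls were corrected for such bin coverage is not given in the sources used here, and its part in the number of members was not tested.

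The hub with most members was chr1:26740001-26745000, with 179 interactions, 109 to bins before it and 70 to bins after it. Their summed counts were 3251/1714 before treatment, 2907/1511 after 6 h and 2985/1867 after 48 h. Neither neighbouring bin was an anchor of any member. The next, chr1:179630001-179635000, had 115 interactions, all with bins before it, and summed counts of 1681/1029 before treatment, 1544/898 after 6 h and 1928/1374 after 48 h. Scaled by library size, it was higher at T48 than at T0 by 0.39 and 0.40 on the log2 scale in replicates 1 and 2, and by 0.03 in each at T6. The third, chr1:57480001-57485000, had 103 interactions, all with bins after it. At chr1:64490001-64495000 there were 100, of which 99 ran to bins before it, with a short-range T0 count of 209 and 117, near that of ordinary bins. The fifth, chr17:30590001-30595000, had 92, and the bin after it had 90, so this hub was 2 bins wide. Of these 5 hubs, the scaled counts of 4 differed between T0 and T48 by 0.25 at most on the log2 scale in each replicate.

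Stable interactions lay side by side in the contact map far more often than pairs listed once. Of the members, 70.5% had another member 1 bin away in either or both anchors. Among pairs listed at a single time point the share with a neighbour from the same list was 25.7% for T0, 20.8% for T6 and 25.5% for T48, although these lists were longer (517,016, 420,459 and 521,800 pairs), and it was 50.5% among pairs listed at 2 time points. The order held in each distance class: 72.2% of members against 25.9% to 32.8% at 100 kb to under 200 kb, 69.6% against 21.7% to 26.9% at 200 kb to under 500 kb, and 60.6% against 12.2% to 19.5% at 500 kb to under 1 Mb. Without hub pairs the share of members was 69.8%, without chromosome 1 it was 70.05%, without the 789 pairs higher in replicate 2 it was 70.3%, and among members with at least 1.5 times the lowest count it was 71.5%. Neighbouring bins share sequence fragments and the rule itself favours high counts, so the shares are given with no test.

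Joined by touching, the members formed 40,999 groups. Of these, 26,511 were single pairs (29.5% of members), and 3967 were clusters of at least 5 pairs, which held 36,577 members (40.7%). A cluster of at least 5 had anchors of 20 kb and 20 kb at the median and filled 66.7% of the rectangle they span. Of these clusters 279 (7.03%) were lines with a single bin as 1 anchor. The count of a member went with the size of its cluster: the median multiple of the lowest listed count was 1.51 for single pairs, 1.79 in groups of 2 to 4, 2.01 at 5 to 9, 2.14 at 10 to 19 and 2.28 in the 245 clusters of 20 or more. Larger clusters had the higher counts.

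In replicate 2 the mean multiple of the lowest listed count was highest at the cluster summit set in replicate 1. In each of 3938 of the 3967 clusters of at least 5 pairs the summit was set as the strongest pair of the replicate 1 libraries, and the counts were then read in the replicate 2 libraries. The replicate 2 counts were also part of the rule that chose the members. Whether the same pair was the strongest in replicate 2 was not tested. At the summit the T0 replicate 2 count was 3.15 times the lowest listed on average, at 1 bin from it 2.44 times, at 2 bins 2.09 times and at 3 bins 2.04 times. T6 replicate 2 gave 2.90, 2.27, 1.94 and 1.89, and T48 replicate 2 gave 3.30, 2.53, 2.15 and 2.06. The decline over the first 2 bins, or 10 kb, was present in all 3 replicate 2 libraries. At 5 or more bins the multiple was higher again, at 2.23, 2.08 and 2.32 in the T0, T6 and T48 replicate 2 libraries, over 1662 pairs against 4837 at 3 bins. Every member had to reach the lowest listed count, which bounds all these values from below.

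**Figure D4:**
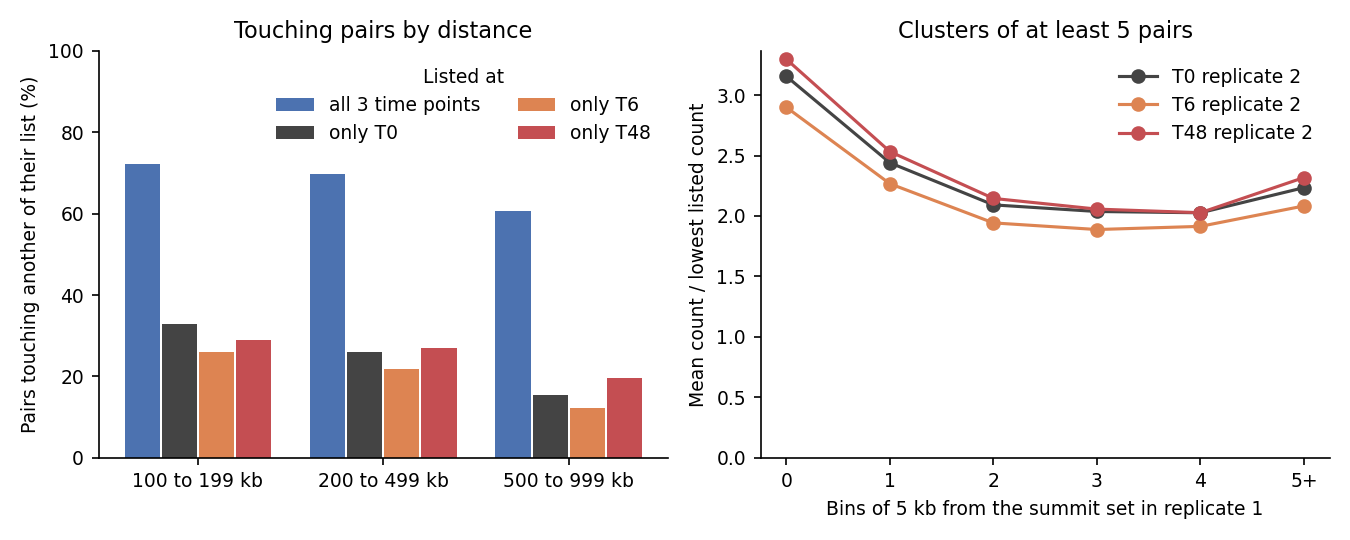
Left, share of pairs with another pair of the same list 1 bin away, by distance class, for pairs listed at all 3 time points and pairs listed at 1 only. Right, mean count as a multiple of the lowest listed count in the 3 replicate 2 libraries, by distance from a summit set in replicate 1, over 3938 clusters of at least 5 pairs. Members touch in 60.6% to 72.2% of cases and single-time pairs in 12.2% to 32.8%, and the multiple declines over the first 2 bins from the summit in all 3 libraries.

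The largest cluster joined chr14:64475001-64535000 to chr14:64645001-64705000, with 77 pairs of 120 to 215 kb. Its summed counts were 1225/728 before treatment, 1153/697 after 6 h and 1275/884 after 48 h. Scaled by library size, both T48 libraries were above both T0 libraries, by 0.25 and 0.26 on the log2 scale within replicates. The second joined chr17:14655001-14700000 to chr17:15010001-15075000 with 68 pairs, counts of 988/491 before treatment, 854/426 after 6 h and 895/561 after 48 h, and T48 over T0 ratios of 0.053 and 0.17. The third joined chr1:157930001-157965000 to chr1:158095001-158150000 with 63 pairs that filled 81.8% of their rectangle, and counts of 1566/865 before treatment, 1359/735 after 6 h and 1139/806 after 48 h. It was lower at T48 in both replicates, with log2 ratios of -0.26 and -0.12. The fourth, of 60 pairs between chr8:19690001-19770000 and chr8:19915001-19990000, lay in the second of the regions higher in replicate 2, with 2364/28,440 before treatment, 2580/25,460 after 6 h and 1923/25,943 after 48 h, and it filled 25% of its rectangle. The fifth, of 54 pairs between chr17:80405001-80460000 and chr17:80570001-80605000, had 889/520 before treatment, 778/459 after 6 h and 899/586 after 48 h. Its T48 over T0 ratios were 0.21 and 0.15.

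Clusters of at least 5 pairs shared their anchors to a limited degree. Merging overlapping anchors gave 5826 anchor regions, with a median length of 20 kb and a longest of 95 kb, linked by 3932 joins. Of these regions, 4396 took part in 1 join, 1009 in 2 and 421 in 3 or more, and the most for 1 region was 15. In 63 cases 3 regions were all joined to each other, which involved 165 regions. Counting only clusters of this size, most regions thus took part in a single join and 24.5% in more than 1. Single pairs and smaller groups were not counted as joins.

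The members with the highest multiple of the lowest listed count, a measure from the counts the rule used, were mostly in the regions higher in replicate 2. In the class of 100 kb to under 200 kb the highest joined chr5:15005001-15010000 to chr5:15195001-15200000, with counts of 410/2875 before treatment, 413/2685 after 6 h and 311/3097 after 48 h. All 3 named members of that class, and all 3 of the class of 200 kb to under 500 kb, were over 3 times higher in replicate 2. With such pairs left out, the highest of 100 kb to under 200 kb joined chr8:19760001-19765000 to chr8:19920001-19925000, inside the region of chromosome 8 above, with 428/965 before treatment, 482/957 after 6 h and 380/208 after 48 h. In the class of 500 kb to under 1 Mb the highest joined chr4:145035001-145040000 to chr4:146020001-146025000, 985 kb apart, with 424/297 before treatment, 415/241 after 6 h and 327/293 after 48 h, against a lowest listed count of 3. Its raw count was higher in replicate 1 than in replicate 2 at each time point, which is also the order of the library sizes. The second of that class joined chr10:57160001-57165000 to chr10:57685001-57690000, with 153/246 before treatment, 149/210 after 6 h and 43/285 after 48 h, where the T48 libraries went opposite ways.

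The members held 2.29% to 3.31% of the listed counts in a library, and more at 6 h than before treatment within each replicate number. Their counts summed to 1,150,883/852,303 before treatment, 1,064,112/760,890 after 6 h and 1,042,661/876,340 after 48 h. As a share of all listed counts this was 2.29%/2.88% before treatment, 2.62%/3.31% after 6 h and 2.40%/2.97% after 48 h, with means of 2.58% ± 0.410, 2.97% ± 0.484 and 2.68% ± 0.402 (SD, n = 2). The groups overlapped. The share at T6 was 0.381 percentage points above T0, with 0.329 and 0.433 within replicates 1 and 2, and the two-sided exact permutation test over libraries gave p = 0.667. Left-out libraries moved this difference from 0.0386 (without T6 replicate 2) to 0.723 (without T6 replicate 1). With 2 libraries against 2 the smallest p it can give is 0.333. Without the 789 pairs higher in replicate 2 the shares were 2.27%/2.42% before treatment, 2.58%/2.76% after 6 h and 2.37%/2.51% after 48 h. Both T6 libraries then lay above all others (difference from T0 0.334 percentage points, exact permutation p = 0.333), and with the 931 pairs of the other direction left out too the difference was 0.328. The T6 list was also the shortest, and as a share of the count of pairs listed at all 3 time points the difference was 0.162 percentage points (exact permutation p = 0.667).

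Change over time was read from counts scaled by TMM library sizes of all pairs listed at all 3 time points, as log2 ratios within each replicate number. T6 and T48 were both compared with the same T0 libraries. The ratio of summed member counts was 0.036 and 0.063 for T6 over T0, 0.053 and 0.019 for T48 over T0, and 0.017 and -0.044 for T48 over T6, in replicates 1 and 2. Without the pairs higher in replicate 2 these were 0.032 and 0.056, 0.053 and 0.032, and 0.021 and -0.024, and without the 931 pairs of the other direction as well 0.032 and 0.055, 0.054 and 0.032, and 0.023 and -0.024. Over all 542,645 pairs the same ratios lay between -0.011 and 0.0064. Counting error (SE) of these ratios of summed member counts was at most 0.0025, and the replicates differed by more than that. The median over single members was 0.023 and 0.057 for T6 over T0, 0.058 and -0.021 for T48 over T0, and 0.047 and -0.017 for T48 over T6, against 0.0022, -0.0091 and 0.0037 as the mean of both replicates over all pairs. As a whole the summed ratios of the members lay between -0.044 and 0.063. For T48 over T0 and T48 over T6 the sign of the median differed between replicates. However, the T48 over T0 median of -0.021 in replicate 2 was also that of all pairs. It is the value that equal raw counts take after scaling, so its sign gives no direction for the members. The T48 over T6 median of 0.047 in replicate 1 is such a value too, so that difference in sign gives no direction either.

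Within the members, the ratio at 48 h differed between the distance classes. Without the pairs higher in replicate 2, the summed T48 over T0 ratio was 0.0013 and -0.0050 at 100 kb to under 200 kb, 0.10 and 0.078 at 200 kb to under 500 kb, and 0.17 and 0.044 at 500 kb to under 1 Mb. With them the last class gave 0.16 and -0.020. For T6 over T0 the 3 classes gave 0.022 and 0.042, 0.045 and 0.066, and 0.046 and 0.10. Stable autosomal pairs under 20 kb gave 0.0071 and 0.018 for T48 over T0, those of 20 to 95 kb -0.079 and -0.057, and those of 1 to 10 Mb -0.053 and -0.059. In both replicates the counts of 20 to 95 kb were therefore lower at 48 h and those of 200 kb to under 500 kb higher, on a scale set mostly by the shortest pairs. By chromosome, without the pairs higher in replicate 2, the T48 over T0 ratio ranged from -0.050 to 0.12 in replicate 1 and from -0.030 to 0.094 in replicate 2, and chromosome 19 was lower in both (-0.050 and -0.018). On chromosome 1 the replicates differed in sign, with -0.032 and 0.070.

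No single interaction passed the test for a change in count. The counting error of the log2 ratio of a member with median counts was 0.63 in replicate 1 and 0.77 for T48 over T0 in replicate 2. Of the members, 47,560 had enough counts to be tested among 496,203 pairs with edgeR's quasi-likelihood test and Benjamini-Hochberg adjustment over all of them. It called 0 members in each of the 3 comparisons (0% of all pairs tested). On simulated counts this test recovered 7% of 2-fold and 95% of 4-fold changes. The simulated spread followed a trend with the count only, without the spread of single pairs or the excess in replicate 2. In the data, members with T48 over T0 log2 ratios of -2.13 and 2.34 were not called. The 0 calls therefore do not exclude 4-fold changes. At an unadjusted p under 0.05 there were 1942 members for T6 over T0 (4.08%, against 3.17% of all pairs tested), 3785 for T48 over T0 (7.96%, against 5.52%) and 3666 for T48 over T6 (7.71%, against 5.06%). Of the 3785, 2217 were higher and 1568 lower at T48. DESeq2 called 0 members in each comparison, where it called 0.000184%, 0.0175% and 0.0144% of all pairs. The members that were tested are those with higher counts and do not stand for all 89,877. A change of over 2-fold within both replicates was seen for 645 members upward at T48 over T0 (0.718%, against 0.206% of all pairs) and 550 downward (0.612%, against 0.264%). For T6 over T0 it was seen for 358 upward (0.398%, against 0.113%) and 212 downward (0.236%, against 0.0805%), and for T48 over T6 for 574 upward (0.639%, against 0.183%) and 647 downward (0.720%, against 0.288%). Members were 17.2% of the stable autosomal pairs and held 3.97% and 5.13% of the stable counts in the T0 libraries, so their counts were lower than those of the background, and the part of this in the larger shares was not tested.

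The members with the lowest p are given for follow-up, though none passed the test. At 6 h the lowest was lower: chr19:46205001-46210000 with chr19:46325001-46330000, 120 kb apart, had 88/51 before treatment, 29/16 after 6 h and 31/22 after 48 h (log2 T6 over T0 -1.45 ± 0.169 SE, edgeR adjusted p = 0.676). Both T0 libraries were high, and T48 stayed near T6. A pair of chromosome 3, chr3:83975001-83980000 with chr3:84105001-84110000, had 89/51 before treatment, 24/18 after 6 h and 27/16 after 48 h (log2 T6 over T0 -1.54 ± 0.195 SE, edgeR adjusted p = 0.813). Its groups at T6 and T48 were both below T0 after scaling. The named pairs that were higher at T6, on chromosomes 4, 14 and 16, had log2 ratios of 1.34 to 1.71 and an edgeR adjusted p of 1.00.

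At 48 h the pair with the lowest p among the lower ones joined chr17:30595001-30600000 to chr17:31005001-31010000, 410 kb apart, with 56/30 before treatment, 40/21 after 6 h and 11/7 after 48 h (log2 T48 over T0 -2.13 ± 0.214 SE, edgeR adjusted p = 0.281). Its first bin is the second bin of the chromosome 17 hub. On chromosome 8, chr8:114240001-114245000 with chr8:114355001-114360000 had 49/29 before treatment, 40/22 after 6 h and 11/6 after 48 h (log2 T48 over T0 -2.07 ± 0.224 SE, edgeR adjusted p = 0.281). In both pairs the 2 T48 libraries were below the 4 others. In the other direction, chr4:112545001-112550000 with chr4:113260001-113265000, 715 kb apart, had 20/13 before treatment, 16/8 after 6 h and 62/36 after 48 h (log2 T48 over T0 1.67 ± 0.194 SE, edgeR adjusted p = 0.281; T48 over T6 1.95 ± 0.209 SE, edgeR adjusted p = 0.393). Both T48 libraries were above all others. A pair of chromosome 1 was low at T6 only: chr1:179485001-179490000 with chr1:179600001-179605000 had 55/32 before treatment, 22/10 after 6 h and 59/38 after 48 h (log2 T48 over T6 1.53 ± 0.191 SE, edgeR adjusted p = 0.393). Another of chromosome 1 was high at T6: chr1:175755001-175760000 with chr1:175890001-175895000 had 48/26 before treatment, 83/56 after 6 h and 28/14 after 48 h (log2 T48 over T6 -1.82 ± 0.217 SE, edgeR adjusted p = 0.393). The other pairs chosen by p had log2 ratios between -2.56, for a pair of chromosome 14 at T48 over T6, and 2.34, for a pair of chromosome 6 at T48 over T0.

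Summing the counts over touching pairs raised them but gave no call in the fit by group alone. With edgeR's quasi-likelihood test, 0 of 22,955 clusters that hold members were called in any of the 3 comparisons (0% of 25,605 clusters tested). On simulated counts this fit recovered 0% of 2-fold and 25% of 4-fold changes. At an unadjusted p under 0.05 there were 295 of the 22,955 for T6 over T0, 687 for T48 over T0 and 649 for T48 over T6. All 25,605 clusters gave 390 (1.52%), 865 (3.38%) and 849 (3.32%). The share among clusters that hold members was thus below that of all clusters in each comparison. DESeq2 called 0 in each. With the replicate number as a block in edgeR, 0 clusters were called for T6 over T0, 1 for T48 over T0 and 7 for T48 over T6, all of them lower at T48. The 1 cluster of T48 over T0 had 4 pairs, between chr8:73595001-73610000 and chr8:74385001-74395000, with 78/222 before treatment and 19/59 after 48 h (edgeR adjusted p = 0.0250 with the block). The 7 were this cluster, another of chromosome 8 that is a single pair, 4 clusters of chromosome 13 and 1 of chromosome 4. All 7 had higher raw counts in replicate 2 than in replicate 1 at every time point, and 4 of them, each a single pair, were over 3 times higher. The replicates did not scale alike here: relative to the library sizes of all pairs, members were higher in replicate 2 than in replicate 1 by a median of 0.10 before treatment, 0.15 after 6 h and 0.086 after 48 h on the log2 scale.

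In the large clusters the ratios of the 2 replicates went together more at 48 h than at 6 h. Over the 241 clusters of at least 20 pairs that were not over 3 times higher in replicate 2, the median T48 over T0 log2 ratio was 0.099 and 0.10, and that for T6 over T0 0.028 and 0.047. The correlation of the ratio between replicates 1 and 2 across these clusters was 0.57 for T48 over T0 and 0.18 for T6 over T0. These points share the depth of their libraries, and clusters on 1 chromosome may share bins, so the values are a description. At T48 over T0, 125 of the 241 (51.9%) were higher in both replicates and 51 (21.2%) lower in both. Over the 3967 clusters of at least 5 pairs these shares were 42.7% and 23.7%. A T48 over T0 ratio above 0.3 in both replicates was found in 25 of the 241 clusters and a ratio under -0.3 in both in 5. These limits were set around 0 and not around the median, and no such count was made for other pairs. For T6 over T0 the numbers were 0 and 2.

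**Figure D5:**
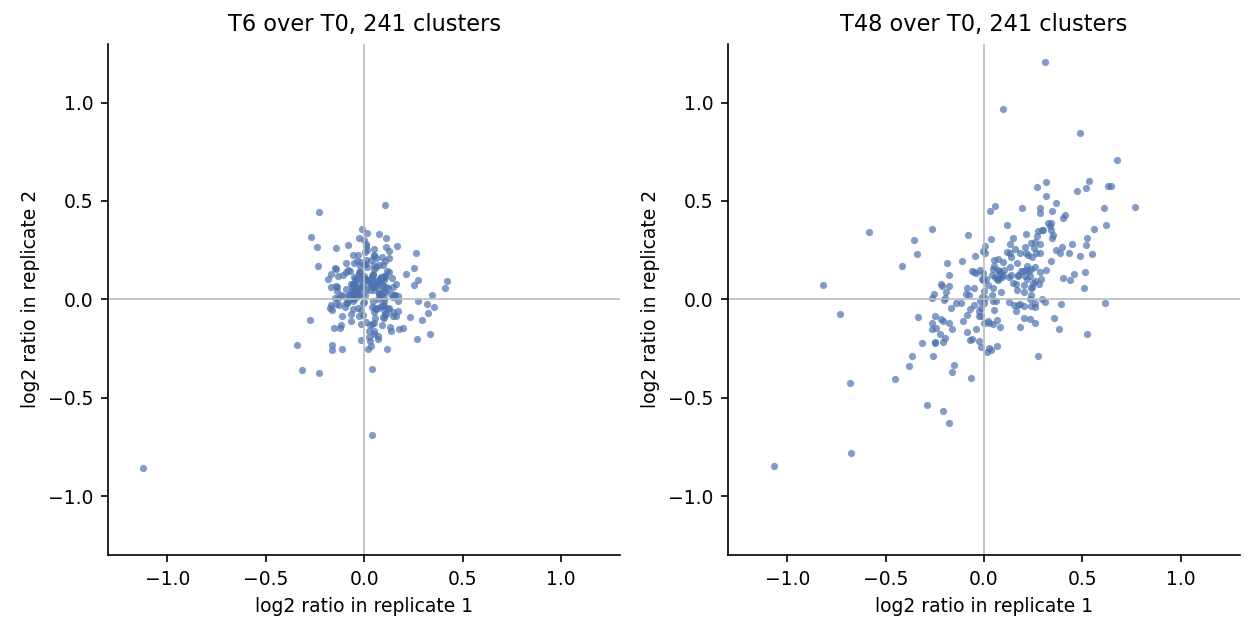
Log2 ratio of scaled counts in replicate 2 against replicate 1 for 241 clusters of at least 20 touching stable interactions, T6 over T0 (left) and T48 over T0 (right). Each point is 1 cluster. A cluster of chromosome 19 with T48 over T0 ratios of -1.42 and -0.22 in replicates 1 and 2 lies outside the axes of the right panel. The T6 points lie around 0 with 1 cluster of chromosome 19 far below it in both replicates, and the T48 points spread along the diagonal (r = 0.57 over 241 clusters).

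The clusters at the ends of this spread, chosen after their values were seen, were as follows. The lowest joined chr19:46205001-46215000 to chr19:46320001-46380000, with 21 pairs, and contains the chromosome 19 pair above. Its summed counts were 1120/586 before treatment, 464/276 after 6 h and 467/331 after 48 h, with scaled log2 ratios of -1.12 and -0.86 at T6 over T0 and -1.07 and -0.85 at T48 over T0. All 4 treated libraries were below both T0 libraries, at about the same level at 6 h and 48 h. The cluster was not called (T48 over T0 -0.996 ± 0.549 SE, edgeR adjusted p = 1.00), and in a fit that both left out the clusters over 3 times higher in replicate 2 and took TMM factors from the clusters the SE was 0.123 and the edgeR adjusted p 0.523 (0.0273 with the replicate block).

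A neighbouring cluster, chr19:45845001-45930000 with chr19:46015001-46030000, had 27 pairs and counts of 927/475 before treatment, 772/412 after 6 h and 303/415 after 48 h, so that replicate 1 was low at T48 (log2 -1.42) and replicate 2 was not (-0.22). A cluster of chromosome 9, chr9:69205001-69230000 with chr9:69315001-69355000, had 617/383 before treatment, 497/274 after 6 h and 337/226 after 48 h. It was lower at T48 in both replicates (log2 -0.68 and -0.78) and between T0 and T48 at 6 h (-0.16 and -0.26). A cluster of chromosome 2, chr2:168485001-168505000 with chr2:168685001-168720000, had 340/197 before treatment, 284/159 after 6 h and 185/149 after 48 h (log2 T48 over T0 -0.68 and -0.42).

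Among clusters higher at 48 h, chr1:152865001-152895000 with chr1:153200001-153275000 had 40 pairs, 24 of them with a hub bin, and counts of 569/338 before treatment, 561/342 after 6 h and 794/560 after 48 h. Its log2 T48 over T0 ratios were 0.68 and 0.71, and both T48 libraries were above all others. A cluster of chromosome 1 between chr1:130245001-130295000 and chr1:130710001-130735000 had 388/236 before treatment, 394/204 after 6 h and 524/357 after 48 h (log2 0.63 and 0.58). On chromosome 10, chr10:101905001-101925000 with chr10:102270001-102310000 had 266/145 before treatment, 248/130 after 6 h and 363/219 after 48 h (log2 0.64 and 0.57). In these 3 clusters T6 differed from T0 by 0.24 at most on the log2 scale in either replicate. The cluster with the highest mean ratio, chr12:72865001-72885000 with chr12:73115001-73165000, had 319/172 before treatment, 280/148 after 6 h and 345/402 after 48 h, where replicate 2 was much higher than replicate 1 (log2 1.20 against 0.31). None of these clusters passed edgeR's test, with an adjusted p of 1.00 in the fit with all clusters and 0.523 to 0.591 in the fit with TMM factors from the clusters and without those higher in replicate 2.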

How the data were processed

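Hi-C libraries of P19 cells were sequenced by the authors, who per the submitters' processing notes used CASAVA 1.8.2 and Bowtie2 with the mm9 build. The authors deposited raw counts of read pairs per pair of 5 kb bins and library, per the file headers, for interactions found in both replicates of a time point. The enzyme, the caller with its threshold, and whether bin coverage was corrected are not given in the sources used here. A count of 0 was read as not listed. Read pairs carry no molecular identifiers, and the totals cover listed pairs only: 50,154,643/29,644,373 at T0, 40,561,360/23,003,295 at T6 and 43,500,876/29,554,481 at T48 for replicates 1/2. All 6 count columns were used.

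Pairs listed at all 3 time points (542,645, nuclear) were fitted in 1 model with edgeR 4.0.16 in R 4.3.3 (TMM, filterByExpr, quasi-likelihood F test, two-sided, Benjamini-Hochberg at 0.05, group only), and members were read from that fit. Touching pairs of at least 100 kb were summed to clusters and tested with the same library factors. Log2 ratios use the TMM sizes with no pseudocount, since all members have counts. Alternatives were DESeq2 1.42.0, other scalings, a fit of all pairs without the filter, the replicate number as a block, and each library left out in turn. Libraries with the same replicate number deviated together over the members, with correlations of 0.35, 0.31 and 0.29 (T0 with T6, T0 with T48, T6 with T48), and 0.17, 0.12 and 0.11 without the pairs higher in replicate 2. This hint of pairing comes from the data, and no label gives it. Both fits were tested on simulated counts with 200 members or clusters changed at T48. For T48 over T0 the fit of pairs recovered 7% of 2-fold and 95% of 4-fold changes. The fit of clusters recovered 0% and 25%, so 0 calls there do not exclude changes of this size. Because the simulated spread followed a trend with the count only, 0 calls on pairs do not exclude 4-fold changes either. Descriptions used Python 3.11.15, pandas 2.3.3 and scipy 1.17.1.

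The members, lists and tests were chosen with earlier results of these data known. Items named were the 3 strongest members per distance class, the 5 largest clusters, the 5 anchor bins and the 5 windows of 1 Mb with most members, and per comparison the 3 members with the lowest p in each direction that moved alike in both replicates, at most 1 per 500 kb except windows. Clusters at the ends of the spread, and the limit of 3 times for replicate 2, were chosen after the values were seen.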

Additional observations from a re-analysis of the deposited data

Results flagged for a closer look

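Chromosome X, outside the autosomal rule, also had stable interactions of 100 kb to 1 Mb. They numbered 4095, or 24.6 per Mb, and made up 7.64% of the T0 list of that chromosome in the range. Their median span was 210 kb, 51.8% touched another, and 16 bins took part in 20 or more. The median log2 ratio was -0.13/-0.021 (replicate 1/replicate 2) for T48 over T0, -0.18/-0.25 for T48 over T6 and 0.049/0.075 for T6 over T0. The replicate 2 values of -0.021 and -0.25 are those that equal raw counts take after scaling, so their sign gives no direction.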

How the results depend on the processing

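The count of 0 called members held under every alternative run on single pairs, the replicate block included. For clusters the block gave 0 calls for T6 over T0, 1 for T48 over T0 and 7 for T48 over T6, all lower, and, as alternatives added after seeing the data, 0, 1 and 9 with TMM factors from the clusters, and 0, 2 and 2 when clusters over 3 times higher in replicate 2 were also left out. These last were, for T48 over T0, the 4 pairs of chromosome 8 (edgeR adjusted p = 0.00999) and the 21 pairs of chromosome 19 (0.0273), and for T48 over T6 the same pairs of chromosome 8 (0.00849) and 5 of chromosome 4 (0.0202). Leaving out 1 library gave 0 to 2 clusters for T6 over T0 (2 without T6 replicate 1), 0 to 18 for T48 over T0 (18 without T0 replicate 1) and 0 to 20 for T48 over T6 (20 without T6 replicate 1, 11 without T0 replicate 1); the cause was not tested. Scaling by all listed counts moved the median of all stable pairs by 0.15 for T6 over T0 and by -0.13 for T48 over T6, and that of the members to 0.19 and -0.12. At 500 kb to under 1 Mb the mean of the replicate medians was 0.19 for T6 over T0 and 0.087 for T48 over T0. The medians of replicates 1 and 2 were 0.15 and 0.23, and 0.20 and -0.021. Each is the value that equal raw counts take after scaling, so they give no direction. The summed ratios of that class were 0.052 and 0.10, and 0.16 and -0.020. Replicates alone gave -0.021 to 0.058 for T48 over T0 and -0.017 to 0.047 for T48 over T6. Of these, -0.021 and 0.047 are values that equal raw counts take after scaling. The share difference of T6 minus T0 ran from 0.0386 to 0.723 percentage points, that of T48 minus T0 from -0.194 to 0.386 percentage points (-0.188 without T48 replicate 2) when 1 library was left out, and T48 minus T6 from -0.627 to 0.0576. The number of members became 274,774 with a match within 1 bin, for which no comparison was made, and 20,217 at 1.5 times the lowest count. The other 123 values stayed on their side of the threshold or moved by less than the replicate spread or 1.5 times. Counts near the lowest listed limit what single pairs can show.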
